A study of Drosophila melanogaster with 3 samples.

Results

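Pita bound many autosomal sites at which no peak of ZIPIC, another insulator protein, was called. These nonoverlapping Pita peaks are the intervals of the deposited Pita list on the arms 2L, 2R, 3L and 3R that share no base with any interval of the deposited ZIPIC list. There were 1167 of them, which is 52.0% of the 2245 Pita peaks on these arms (95% exact binomial interval 49.9 to 54.1, counting error only). In the whole Pita list of 2768 peaks, 51.1% had no ZIPIC peak. The peaks were selected on the measured overlap of the deposited intervals, so their number is a description and was not tested.

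Chromatin came from S2 cells, a line of Drosophila melanogaster embryonic origin grown in culture. It was cross-linked with formaldehyde, sheared and precipitated with anti-Pita or with anti-ZIPIC, both polyclonal. Each precipitate gave 1 library, peaks were called against 1 library of input DNA, and where a precipitate gave little DNA, several made with its antibody went into the library together. With 1 library per protein no value below has a replicate, and no difference between classes of peaks was tested, since peaks of 1 library are not replicates. The identity of the cells could not be checked against markers in lists of peaks. The lists give the position of each peak, the caller's p over input and a false discovery rate (FDR), but neither reads nor fold enrichment, so the number of reads under each peak is unknown. The study's own read totals, which are not used here, give fewer unique reads for the Pita library than for the ZIPIC library, and the part of this difference in the overlap was not tested. Strength is given here as −log10 p, which grows with the depth of the library as well as with enrichment. Positions are those of the dm3 assembly, counted from 1.

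Pita and ZIPIC are zinc-finger proteins of the ZAD family, a large insect-expanded group in which an N-terminal domain that binds zinc stands before a row of DNA-binding C2H2 fingers. Both bind CP190, a BTB-domain protein shared by many fly insulators that is brought to chromatin by DNA-binding partners. Insulators are elements that can block an enhancer from acting on a promoter or hold back the spread of silent chromatin. A Pita peak with no ZIPIC peak is therefore a place where 1 of these partners was detected without the other. Genes, promoters and motifs at these peaks were not analysed here, because they need a dm3 genome and annotation, and neither was used.

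The 3 strongest of these peaks on each arm, 12 in all, spanned 287 to 879 bp. The strongest lay on 2L from 12133364 to 12134156, with a strength of 96.7, and ranked 38 in the whole Pita list. Next on that arm were the intervals from 1491931 to 1492809 (strength 88.8) and from 17715413 to 17716159 (76.3). All 3 were wide, at 747 to 879 bp, and lay 18579 bp or more from the nearest ZIPIC peak.
On 2R the strongest ran from 10028340 to 10028941, with a strength of 81.2. It was followed by a narrower one from 4830556 to 4830855 (70.0) and one from 20580453 to 20581045 (69.3). Their nearest ZIPIC peaks were 11204, 7672 and 7510 bp away, closer than on 2L.
On 3L the leading peak, from 19133473 to 19133773, reached a strength of 79.6 over only 301 bp. The next were the intervals from 4805902 to 4806603 (71.9) and from 22641072 to 22641577 (65.0). The last of these was 91364 bp from any ZIPIC peak.
On 3R the strongest lay from 531605 to 531891 (72.9), from 27754075 to 27754536 (72.6) and from 9058448 to 9058837 (69.5). They ranked 95, 97 and 117 in the Pita list. Strong Pita signal without a ZIPIC peak was thus found on all 4 arms, at sites between 7053 and 95085 bp from the nearest ZIPIC peak.

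Most nonoverlapping peaks were weaker than these. Their strength had a median of 10.5 with quartiles of 5.78 and 25.6, and ran from 4.00 to 96.7. The 1078 autosomal Pita peaks that overlapped ZIPIC had a median of 16.6 with quartiles of 6.92 and 38.0. The ratio of the medians was 0.633. The medians lay below those of the overlapping peaks on each arm, with 11.2 against 18.3 on 2L, 8.79 against 12.6 on 2R, 9.94 against 13.7 on 3L and 11.9 against 21.0 on 3R. The distributions nevertheless overlapped over most of their range.
The study's methods name a p under 1e-05 as the limit for its peaks, together with a limit on the FDR. A p under 1e-05 was reached by 979 nonoverlapping peaks (83.9%, 95% exact binomial interval 81.7 to 86.0) and by 961 overlapping ones (89.1%, 87.1 to 90.9). In the whole Pita list 86.7% reached it. The share without ZIPIC that missed this limit was nearly the same on the 4 arms, at 15.8% to 16.9%. The 3 weakest peaks each had a strength of 4.00, where the deposited list ends. One on 3L spanned 10712464 to 10712830, another on that arm 3417867 to 3418057, and the one on 3R 1835370 to 1835507.

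At the strong end the classes parted. A strength of at least 40 was found for 128 nonoverlapping and 245 overlapping peaks, one of at least 60 for 25 and 98, and one of at least 80 for 3 and 38. The 2245 autosomal Pita peaks were then ranked by strength and split into 10 classes of 224 or 225 peaks. The share without ZIPIC was 61.3% (54.6 to 67.7) in the weakest class and 50.0% (43.3 to 56.7) in class 6. It was 46.4% (39.8 to 53.2) in class 9 and 27.1% (21.4 to 33.4) in the strongest. Strengths in that last class began at 49.7, and 61 nonoverlapping peaks stood in it. From class 1 to class 6 the share was lower at each step, class 7 stood above class 6 at 54.0%, and from there it was lower again at each step.

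**Figure D1:**
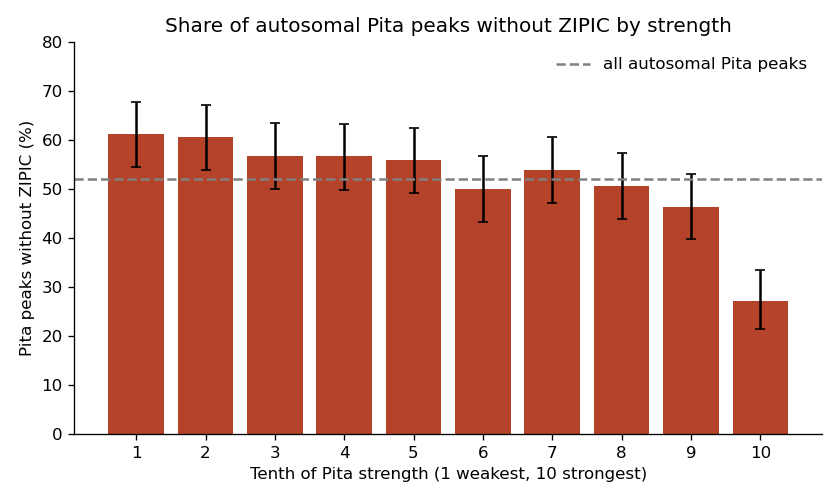
Share of autosomal Pita peaks without a ZIPIC peak (%, vertical axis) in 10 classes of Pita strength from weakest to strongest, with 95% exact binomial intervals for counting error as error bars. The share lay at 61.3% in the weakest class and 27.1% in the strongest, and the dashed line marks the 52.0% of all autosomal Pita peaks.

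Nonoverlapping peaks were also narrow. Their median width was 239 bp, with quartiles of 173 and 386 bp and a range of 82 to 1187 bp. Overlapping peaks spanned a median of 291.5 bp and had quartiles at 188 and 453.75 bp. Widths of 500 bp or more were found for 145 nonoverlapping peaks (12.4%) and 221 overlapping ones (20.5%), and widths of 1000 bp or more for 9 and 19. Together the nonoverlapping peaks covered 352 kb, against 384 kb for the overlapping ones.
Stronger peaks were wider, though loosely. Across the 1167 nonoverlapping peaks Spearman's rho of strength and width was 0.26, and across the 1078 overlapping peaks 0.31. These values describe peaks of 1 library, called by 1 program on the same reads. Widths were therefore set side by side within 4 classes of strength of near-equal size. In the weakest class the medians were 204 bp without ZIPIC (95% interval from order statistics 195 to 221) and 229 bp with it (208 to 259). In the next class they were 222.5 bp (209 to 241) and 255 bp (228 to 286), and in the one above it 232.5 bp (216 to 259) and 273 bp (240 to 303). In the strongest class they were 343.5 bp (324 to 377) and 361 bp (332 to 391). Strength was not alike in this strongest class, with medians of 41.4 without ZIPIC and 49.2 with it. The median without ZIPIC was thus the smaller in all 4 classes, with intervals that overlapped in each. With the finer split into 10 classes this order turned round in class 8 (277.5 and 272 bp) and class 9 (360.5 and 348.5 bp). A wider interval has more bases with which to meet a ZIPIC peak, and the part of width in the overlap was not tested.
Width and strength did not always go together. Of the 145 wide nonoverlapping peaks, 55 had a strength under 10, and so had 60 of the 221 wide overlapping peaks. The widest, at 1187 bp, lay on 3R from 17122179 to 17123365 and had a strength of 4.80. Next came an interval of 1181 bp on 2L, 5340088 to 5341268, with a strength of 5.60, and one of 1152 bp on 2R, 5433510 to 5434661, with 21.6. They ranked 2457, 2218 and 1029 in the Pita list, and the 12 strong peaks named above were all narrower than these.

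**Figure D2:**
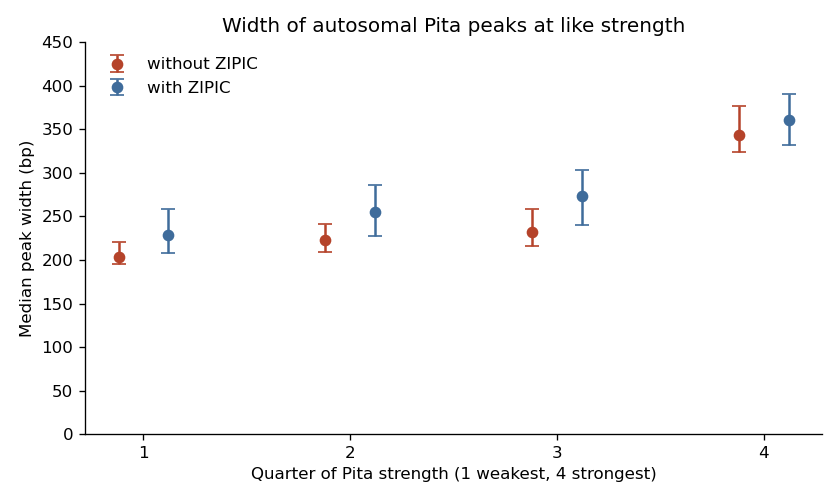
Median width of autosomal Pita peaks (bp, vertical axis) in 4 classes of Pita strength, for peaks without ZIPIC (red) and with ZIPIC (blue), with 95% intervals of the median from order statistics as error bars. The medians without ZIPIC, 204 to 343.5 bp, lay below those with ZIPIC, 229 to 361 bp, in each class, and the intervals overlapped.

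Along the chromosomes nonoverlapping peaks occurred at 11.8 per Mb on 2L, 14.0 on 2R, 12.9 on 3L and 10.5 on 3R. Overlapping peaks occurred at 9.72, 12.7, 10.7 and 11.9 per Mb on the same arms. The nonoverlapping peaks numbered 267 of 487 Pita peaks on 2L (54.8%, 50.3 to 59.3), 296 of 564 on 2R (52.5%, 48.3 to 56.7), 311 of 569 on 3L (54.7%, 50.5 to 58.8) and 293 of 625 on 3R (46.9%, 42.9 to 50.9). Only on 3R were they fewer than the overlapping peaks. On X, which carries 461 Pita peaks, 222 had no ZIPIC peak (48.2%, 43.5 to 52.8). Lengths of arms were taken up to the last peak seen in either list.
Within arms the share without ZIPIC was also taken by window. In the 91 windows of 1 Mb with at least 10 Pita peaks, the share without ZIPIC had a median of 51.2% and quartiles of 43.5% and 61.8%. The highest share was found on 3L between 10 and 11 Mb, with 16 of 19 Pita peaks (84.2%, 60.4 to 96.6). On 3R between 15 and 16 Mb it was 14 of 17 (82.4%, 56.6 to 96.2). The lowest was found on 3R between 24 and 25 Mb, with 4 of 19 (21.1%, 6.05 to 45.6), followed by 6 of 24 between 4 and 5 Mb on the same arm (25.0%, 9.77 to 46.7). These named windows are the extremes of the 91. The interval lay wholly above the share of all autosomal Pita peaks in 3 windows and wholly below it in 4. Among 91 intervals at the 95% level some miss that share by counting error alone, and variation between windows was not tested. Windows held 4 to 30 nonoverlapping peaks, with the highest number on 3L in its first 1 Mb, where 30 of 45 Pita peaks had no ZIPIC peak. Numbers of the 2 classes went together only loosely over the 91 windows, with a Spearman's rho of 0.30 across windows that share 1 library.

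**Figure D3:**
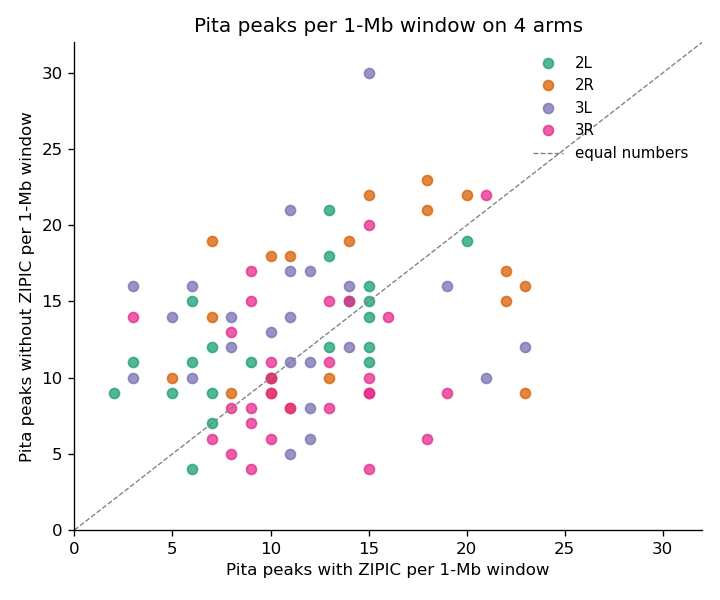
Pita peaks without ZIPIC (vertical axis) against Pita peaks with ZIPIC (horizontal axis) in each of 91 windows of 1 Mb with at least 10 Pita peaks, colored by arm, with a dashed line where the numbers are equal. Windows lie on both sides of the line, from 16 without and 3 with ZIPIC on 3L to 4 without and 15 with ZIPIC on 3R.

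By the rule none of these peaks touches a ZIPIC peak, and few lay just beside one. The distance between the edges had a median of 16182 bp (95% interval from order statistics 15099 to 17418), with quartiles of 5710.5 and 36377 bp. Within 500 bp of a ZIPIC peak there were 60 nonoverlapping peaks (5.14%, 95% exact binomial interval 3.95 to 6.57), within 1 kb 99 (8.48%, 6.95 to 10.2) and within 10 kb 413 (35.4%, 32.6 to 38.2). The remaining 754 had no ZIPIC peak within 10 kb, and 187 had none within 50 kb. Overlapping Pita peaks had further ZIPIC peaks closer by. For them the nearest ZIPIC peak that they did not touch lay at a median of 7581 bp (6423 to 8574), and within 500 bp for 148 of 1078 (13.7%, 11.7 to 15.9). Autosomal ZIPIC peaks without Pita, 1058 in number, lay a median of 10717 bp (9556 to 12333) from the nearest Pita peak.
Of the 60 peaks within 500 bp of a ZIPIC peak, 38 stood beside one that overlapped another Pita peak. Median strength was 8.04 for the 60, 7.18 for the 39 at 500 to 1000 bp and 11.5 for the 187 beyond 50 kb. Over all 1167 peaks, however, strength and distance were nearly unrelated, with a Spearman's rho of 0.06.
For 602 of the 1167 the nearest ZIPIC peak itself overlapped some Pita peak (51.6%, 48.7 to 54.5). Of all autosomal ZIPIC peaks 50.2% did so. The ZIPIC peaks nearest to nonoverlapping Pita peaks had a median strength of 10.8 in the ZIPIC list where they overlapped a Pita peak and 5.76 where they did not.

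**Figure D4:**
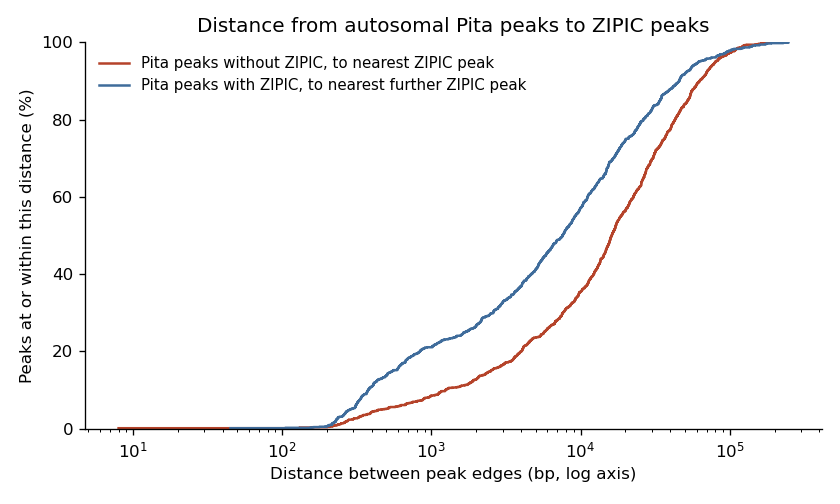
Cumulative share of autosomal Pita peaks (%, vertical axis) by distance between edges (bp, log axis), from Pita peaks without ZIPIC to the nearest ZIPIC peak (red) and from Pita peaks with ZIPIC to the nearest further ZIPIC peak (blue). Medians were 16182 bp and 7581 bp, and within 10 kb lay 35.4% and 57.1%.

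The values on either side of the rule were as follows. The 5 nonoverlapping peaks closest to ZIPIC were 8, 130, 131, 158 and 200 bp from it. In that order they spanned 1910023 to 1910173 on 2L (strength 4.82), 10730003 to 10730147 on 3R (23.6), 27573106 to 27573635 on 3R (5.61), 8239736 to 8239939 on 2L (7.38) and 18944678 to 18945079 on 2L (11.6). The 5 Pita peaks that shared fewest bases with ZIPIC shared 46, 54, 65, 66 and 68 bp. In that order they spanned 25959717 to 25960073 on 3R (strength 10.8), 12759803 to 12760057 on 3R (13.5), 9763144 to 9763244 on 2L (7.08), 5019962 to 5020119 on 2R (11.1) and 3469962 to 3470125 on 2L (22.4). All of these 5 but the one that begins at 9763144 belong to pairs of Pita intervals that overlap each other, described at the end. So does the nonoverlapping peak 8 bp from ZIPIC. The part of these pairs in the small shared lengths was not tested. No other nonoverlapping peak came within 200 bp of ZIPIC.
At the other end, the peak farthest from ZIPIC was 185719 bp away, on 2L from 14706272 to 14706533, with a strength of 32.3. It was followed by one on 3L, 5505112 to 5505330 (167731 bp, strength 52.9), and one on 2L, 5635260 to 5635482 (164667 bp, strength 4.27). The first 2 were 262 and 219 bp wide, beside a median of 239 bp for all 1167.

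Nonoverlapping peaks were often far from other Pita peaks too, as were many overlapping ones. The gap to the nearest other Pita peak on the arm had a median of 9830 bp, against 7861 bp for overlapping peaks. It was over 20 kb for 30.6% of the nonoverlapping and 26.0% of the overlapping peaks. No other listed peak of either protein lay within 10 kb of 480 of them (41.1%, 38.3 to 44.0) and none within 50 kb of 53 (4.54%, 3.42 to 5.90). The 480 isolated peaks had a median strength of 10.5 and a median width of 263 bp, against 10.5 and 239 bp for all 1167. A strength of at least 40 was found for 60 of the 480 and for 128 of all 1167. Isolation from both proteins was not counted for overlapping peaks, so it is not shown to be particular to the nonoverlapping ones. Isolation was thus found among strong and weak peaks.
The nearest Pita peak was more often of the same class than of the other. For 719 of the 1167 nonoverlapping peaks it was also without ZIPIC (61.6%, 58.8 to 64.4), and for 440 of the 1078 overlapping ones it was without ZIPIC (40.8%, 37.9 to 43.8), beside 52.0% among all autosomal Pita peaks. These counts include peaks whose intervals overlap each other, 27 of the nonoverlapping and 23 of the overlapping class. Peaks nearest to each other are counted from both sides, and the binomial intervals take no account of this. With gaps of 1 to 5 kb the shares whose nearest peak was without ZIPIC were 61.4% (54.6 to 67.8) and 44.4% (37.4 to 51.7). With gaps over 20 kb they were 60.2% (54.9 to 65.3) and 51.4% (45.4 to 57.4). The difference was larger at short gaps. With gaps up to 500 bp the nearest peak was without ZIPIC for 65.9% (56.8 to 74.2) of the nonoverlapping peaks and 25.7% (18.9 to 33.4) of the overlapping ones, leaving out intervals that overlap each other. At short gaps a single ZIPIC interval can span neighboring Pita peaks, which places both in the overlapping class by the rule. The part of this in the larger difference was not tested.

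**Figure D5:**
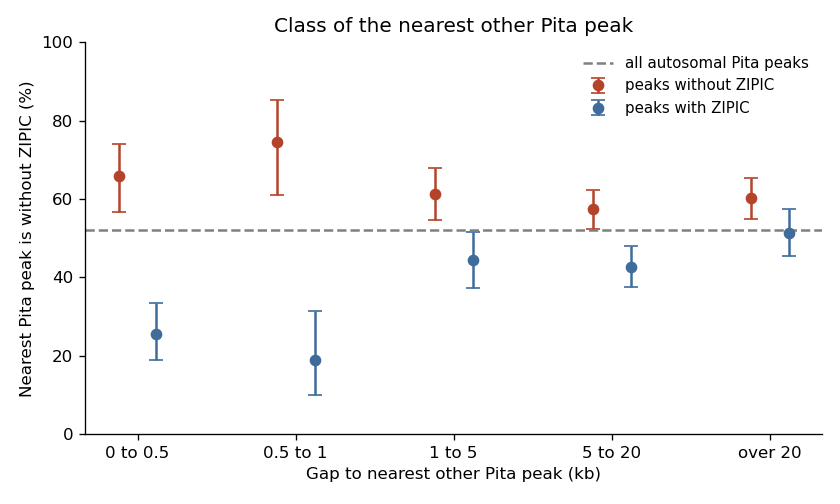
Share of peaks whose nearest other Pita peak has no ZIPIC peak (%, vertical axis) by gap to that peak (kb, horizontal axis), for peaks without ZIPIC (red) and with ZIPIC (blue), with 95% exact binomial intervals for counting error. Red points lie above the dashed 52.0% of all autosomal Pita peaks at every gap, at 61.4% for 1 to 5 kb, and blue points below it, at 44.4%.

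Nonoverlapping peaks beside an overlapping one were mostly the weaker of the pair. As nearest Pita peak within 1 kb, 57 had a peak that overlapped ZIPIC, and 41 of the 57 were weaker than it. Median strength was 7.68 for the 57, against 24.5 for those neighbors. Of all 1167 nonoverlapping peaks, 656 were weaker than their nearest Pita peak of either class. Overlapping peaks were the stronger class on all arms, and the part of closeness was not tested. The 148 whose nearest Pita peak within 1 kb was also without ZIPIC had a median strength of 12.6, and 26 of these are intervals that overlap each other.
When autosomal Pita peaks with gaps under 5 kb were linked, 742 nonoverlapping peaks stood alone (63.6%) and 425 in groups (36.4%). The overlapping peaks were much alike in this. Of these 1078 peaks 647 stood alone, and 40.0% had another Pita peak within 5 kb. Of the 372 groups, 107 held nonoverlapping peaks only, 117 held none and 148 were mixed. The largest group without ZIPIC lay on 3L from 14213979 to 14229157 and held 6 peaks. Their strengths were 47.9, 8.07, 29.8, 13.1, 18.4 and 4.93 in order along the arm. The nearest ZIPIC peak was 8291 bp from the first of them. The next largest, on 3R from 14838136 to 14843346, held 5 intervals with strengths of 4.33, 39.9, 12.2, 20.5 and 52.8. It lay 28239 bp or more from ZIPIC. The intervals with strengths of 39.9 and 12.2 overlap each other by 104 bp. Strengths thus differed widely within both groups.

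Runs of consecutive Pita peaks without ZIPIC were longest on 3L. In order along the arms, the 1167 peaks formed 486 runs, of which 204 were of 1 peak and 52 of at least 5, and the longest had 12. The overlapping peaks also formed 486 runs, of which 53 had at least 5 peaks, and the longest had 10. The run of 12 spanned 479 kb on 3L from 10071793 to 10550800 and held 4 ZIPIC peaks. By the definition of a run, none of these could touch a Pita peak. Strengths in the run of 12 lay between 4.29 and 38.0 with a median of 13.7. Its strongest peak, from 10314636 to 10315328, was 693 bp wide and 2919 bp from ZIPIC. Its closest approach to ZIPIC was 387 bp, at the peak from 10239565 to 10239768 (strength 27.1). The others followed at 7617 bp or more. A run of 11 peaks spanned 567 kb on the same arm from 5083398 to 5649977, with 3 ZIPIC peaks, strengths of 4.60 to 52.9 and a median of 12.6. Both runs held strong and weak Pita peaks, with ZIPIC peaks between them.

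The absence of a ZIPIC peak rests on the end of the ZIPIC list, at a p of 1e-04. This is laxer than the 1e-05 named in the study's methods. Of the 1078 overlapping Pita peaks, 107 (9.93%) met their ZIPIC partner only in peaks with p at or above 1e-05. Signal of ZIPIC below the end of its list cannot be seen in these data, and a site without ZIPIC and one with weak ZIPIC signal cannot be told apart.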

How the data were processed

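Per the labels and the study's methods, the authors mapped reads with Bowtie to dm3, discarded ambiguous and duplicate reads, and compared each precipitate with input in MACS and PeakRanger. The labels also name FastQC, SAMtools and hg19. No version is named in the sources used here. The deposited lists hold a p-value and an FDR for each peak, and entry names point to PeakRanger. Starts were taken as 0-based, and 1 shared bp counted as overlap. A p listed as 0, found only among overlapping peaks, was ranked highest. Intervals of shares are exact binomial (95%), those of medians come from binomial order statistics, and both cover counting error only. Overlap, distance and joining were tested on simulated data. Members and measures were chosen with earlier results of these data known. The peaks named are the 3 strongest per arm, the 3 widest, the 3 weakest, the 5 on each side of the rule, the 3 farthest from ZIPIC, the 2 largest groups without ZIPIC, and the longest run. The run of 11 was added after its values were seen. Alternatives changed overlap, limits, arms and strength. Start sites and motifs need a dm3 genome and were not used here. Computation used SciPy 1.17.1, pandas 2.3.3 and NumPy 2.4.6 under Python 3.11.15, with plots from matplotlib 3.10.9. Arms were measured to the last peak in either list.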

Additional observations from a re-analysis of the deposited data

How the results depend on the processing

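Of 66 recomputed values, 57 stayed within the interval of the value reported, or for the number of peaks within 1.5 times of it, and none of the ratios changed direction. With both lists cut to their 1000 strongest peaks, 516 autosomal Pita peaks (64.9%) had no ZIPIC peak. The part of each list's length in this was not tested. The share was 49.3% when a ZIPIC peak within 500 bp counted as present, 47.6% for 1000 bp and 56.7% with ZIPIC peaks of p under 1e-05 only. The median strength was 14.0 among Pita peaks with p under 1e-05, which removes the weakest. The ratio of median widths was 0.952 within the strongest of 4 classes of Pita peaks, against 0.820 over all. The median distance to ZIPIC was 18154 bp without peaks within 1000 bp and 19959 bp with ZIPIC peaks of p under 1e-05 only. Joining Pita intervals that overlap each other, an alternative chosen after seeing the data, left 1153 peaks (51.9%). Reading starts as 1-based left the number at 1167. The number of reads under each peak is unknown, so a missed weak ZIPIC peak and an empty site cannot be told apart. Shares of Pita peaks with a model binding site or at start sites were planned and not run. No paired analysis was possible because each protein has 1 library.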

Other observations

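Some nonoverlapping Pita peaks were listed as intervals that overlap each other. The Pita list holds 32 such pairs, which share 6 to 129 bp, and in all 32 both the start of the second interval and the end of the first lie within 100 bp of a multiple of 10000 bp. The same held for all 12 such pairs of the ZIPIC list. Elsewhere on the 4 arms the smallest gap between neighboring Pita peaks was 202 bp, with 1 exception on 3R, where 103 bp separate an overlapping peak from the nonoverlapping one that begins at 10730003. Of the 25 autosomal pairs, 13 consist of nonoverlapping peaks and 1 is mixed, so that 27 of the 1167 peaks belong to such pairs. The mixed pair lies on 2L. Its first interval, from 1909762 to 1910032, overlaps ZIPIC and has a strength of 71.8, whereas the second, from 1910023 to 1910173, has a strength of 4.82 and is the nonoverlapping peak closest to ZIPIC. Strengths within a pair were alike on 2R, at 31.3 for the interval from 18959899 to 18960070 and 31.4 for that from 18959969 to 18960175. They were unlike on 3L, at 6.04 for the interval from 489942 to 490081 and 26.2 for that from 489978 to 490351. The 2R and 3L pairs were chosen after their values were seen. The cause of these pairs was not tested.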
